A study of Mus musculus with 1 sample.

Results

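This report describes 10 of the 32285 genes in the count table of a mouse tumor library. They make oxysterols, sense them through the liver X receptors (LXR), or respond to those receptors. The genes were taken by name, with earlier results of these data known. Cyp46a1 and both receptors lie on the route the study traced inside tumor cells, from cholesterol through 24-hydroxycholesterol and LXR to Tgfb1, and the others are further oxysterol enzymes and LXR targets. Ch25h, Cyp46a1, Cyp27a1 and Cyp7b1 encode oxysterol enzymes, Nr1h2 and Nr1h3 encode LXR beta and LXR alpha, and Abca1, Abcg1, Mylip and Apoe are known LXR targets.

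The sample was 1 droplet single-cell library of MC38 tumors, which arise from a mouse colon carcinoma line, grown under the skin of immunocompetent C57BL/6J mice. Cells of 5 tumors were pooled in equal parts after dissociation and lysis of red cells, with no sort. The labels call the genotype WT and do not name the hairpin of the line, so the library is described as the WT pool. The knockdown pool that the methods also describe was not analysed here. Because the pool is a single library, no spread between animals could be measured and no test between conditions was possible. Every interval below is an exact 95% interval for counting error only.

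Oxysterols are oxidized forms of cholesterol, each made by its own hydroxylase, and several bind LXR. LXR works as a dimer with a retinoid X receptor (RXR) on paired hormone response elements, where binding of an oxysterol turns on genes that move cholesterol out of the cell. In tumors, macrophages are known for strong expression of this efflux program, while interferon is known to raise Ch25h in macrophages.

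After filtering, 4443 cells with 94085864 unique molecular identifiers (UMIs) remained, with a median of 10385.0 UMIs per cell. Tumor-like cells numbered 1709 and held 79.9% of the UMIs, with a median of 40856.0 UMIs per cell. Macrophage-like cells numbered 1481 (median 8885.0 UMIs), monocyte-like cells 228 (median 4504.0) and T-like cells 86 (median 5200.5). The small groups were 45 dendritic (DC-like), 62 cancer-associated fibroblast (CAF-like), 37 endothelial-like, 23 granulocyte-like and 20 NK-like cells, and 752 mostly shallow cells were given no name. The CAF-like cells were 30 Pdgfra-high and 32 Rgs5-high cells. Leading genes of the Rgs5-high cells included Higd1b, Rgs5, Tagln and Acta2, and Pdgfra was not among their raised markers. They may be pericytes, and the CAF-like name does not separate the 2 types. Levels are given as CPM, the UMIs of a gene per 1000000 UMIs of the group. The label "Epithelial cells" was not borne out by keratins, as Krt18 had 0 UMIs and Krt8 had 7 UMIs in the tumor-like cells. Those cells were named from Shisal2b (215.8 CPM against 16.1 in macrophage-like cells), Rhox5 (697.2 against 42.3) and near loss of the host transcript Xist (2.47 against 849.6). None of the 10 genes took part in the clustering, although genes that vary with them did, and levels moved with the way groups were drawn (Ch25h in interferon-response cells from 72.2 to 195.3 CPM over the alternatives). A gene was called higher or lower between groups when its level differed at least 2-fold, among genes with at least 20 UMIs over both groups.

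Promoter sequences of 3 genes are shown because these genes carry the contrasts described below: Abca1 differed most between macrophage-like and tumor-like cells, Ch25h varied between macrophage states, and Nr1h2 was nearly even across groups. Each is the RefSeq window from 250 bases before to 50 bases after the start of the gene on GRCm38.p6, written in the direction of transcription. Capitals mark the motif named for each window. The windows lie on the minus strand at chr4:53159846-53160145 for Abca1, chr19:34475099-34475398 for Ch25h and chr7:44553916-44554215 for Nr1h2.
Abca1: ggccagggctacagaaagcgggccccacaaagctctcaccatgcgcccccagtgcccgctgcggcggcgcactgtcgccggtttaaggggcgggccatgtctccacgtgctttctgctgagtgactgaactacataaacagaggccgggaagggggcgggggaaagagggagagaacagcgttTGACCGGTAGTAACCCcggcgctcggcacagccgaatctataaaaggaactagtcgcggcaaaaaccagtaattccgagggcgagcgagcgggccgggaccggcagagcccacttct
Ch25h: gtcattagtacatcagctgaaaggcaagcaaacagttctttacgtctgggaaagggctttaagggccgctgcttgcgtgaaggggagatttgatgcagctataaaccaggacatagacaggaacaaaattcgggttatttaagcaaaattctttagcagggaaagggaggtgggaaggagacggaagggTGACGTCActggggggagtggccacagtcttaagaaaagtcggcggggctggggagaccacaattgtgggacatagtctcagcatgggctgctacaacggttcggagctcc
Nr1h2: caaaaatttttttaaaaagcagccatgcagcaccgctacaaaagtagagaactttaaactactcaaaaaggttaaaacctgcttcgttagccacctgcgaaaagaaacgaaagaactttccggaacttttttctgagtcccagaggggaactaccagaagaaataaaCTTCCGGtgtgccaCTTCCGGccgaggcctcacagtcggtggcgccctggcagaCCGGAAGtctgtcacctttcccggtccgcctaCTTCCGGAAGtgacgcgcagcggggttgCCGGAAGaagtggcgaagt

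In the Abca1 window the capitals mark the closest match to the LXR element known as DR4, which is a pair of AGGTCA units 4 bases apart. The match reads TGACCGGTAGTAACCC on the strand shown and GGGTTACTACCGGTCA on the other, with 3 mismatches, and starts at position -67. A match with at most 3 mismatches on either strand was present in 21.9% of 32851 mouse promoter windows, and one with at most 2 in 3.02%. Among the 8 members with a window, only Abca1 and Cyp46a1 had a match with 3 mismatches or fewer. In Ch25h the capitals mark the cAMP response element TGACGTCA at position -61, found on either strand in 1.79% of windows. The interferon-stimulated response element, searched on both strands as a pair of GAAA units 2 bases apart and present in 3.44% of windows, did not occur in the Ch25h window. In Nr1h2 they mark the ETS-type motif CCGGAAG or its reverse complement at 6 places, of which 2 overlap. The motif occurred at least once in 8.86% of windows, and 3 of the 32851 windows held as many places. The motifs were chosen after levels and sequences had been seen, and a match describes letters only.

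**Figure D1:**
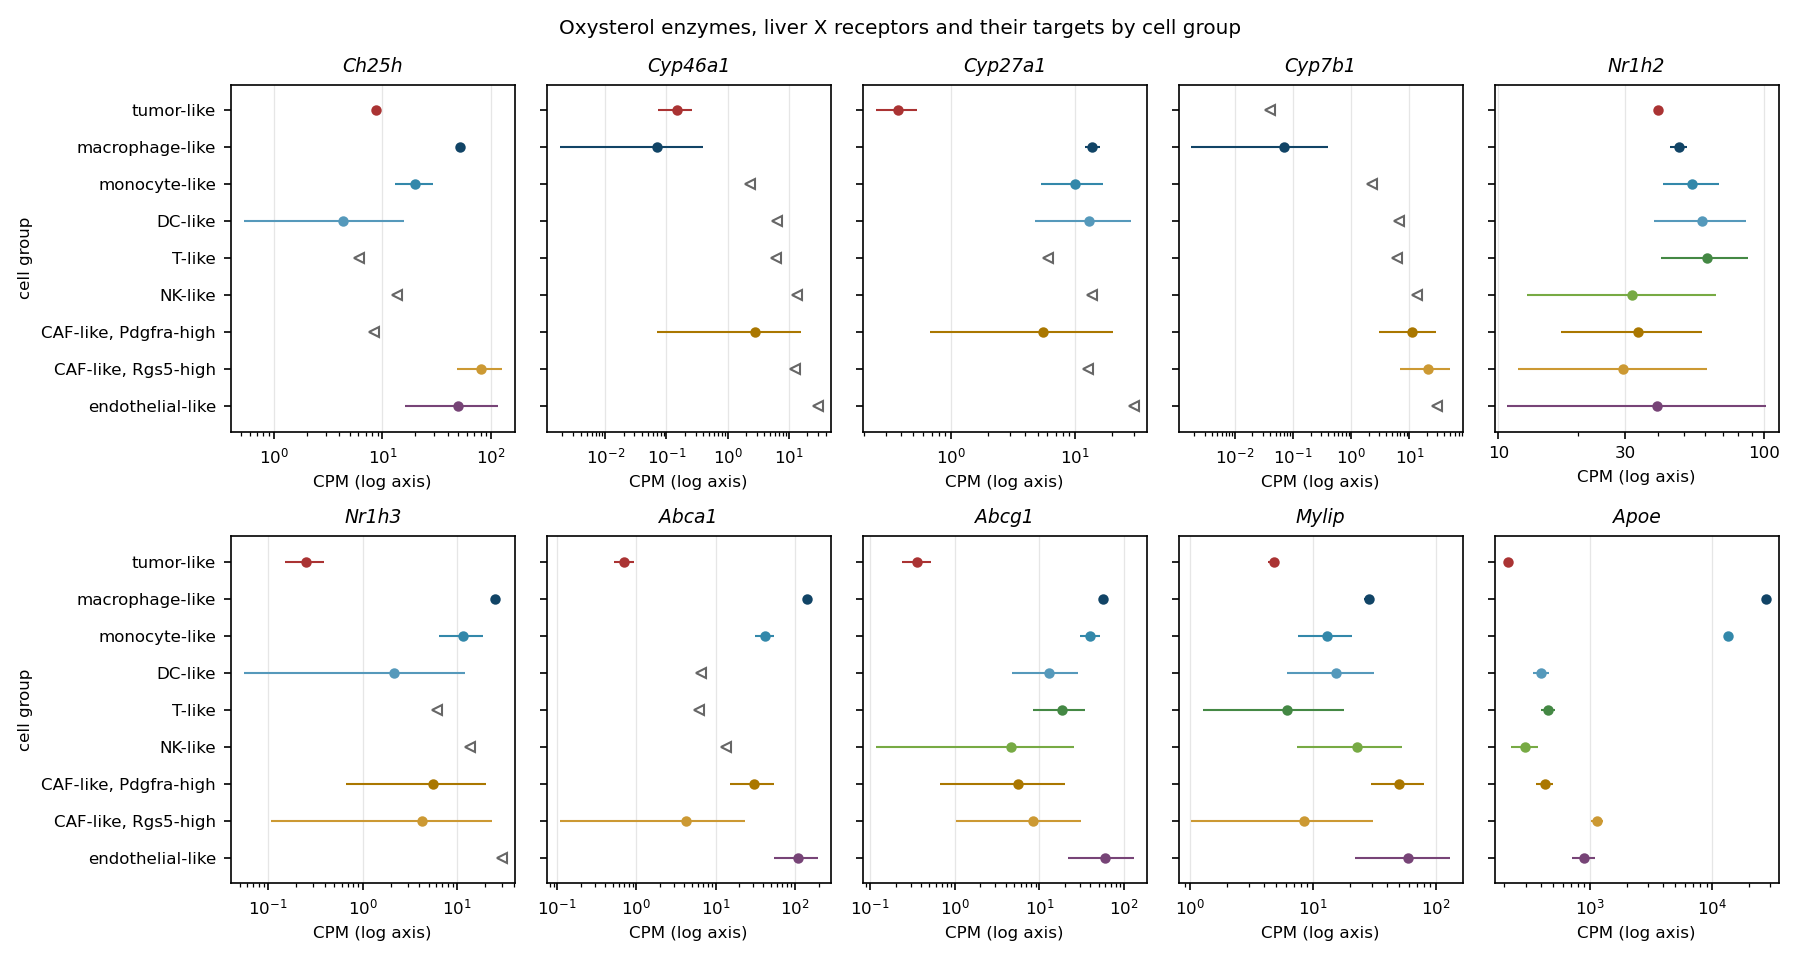
Level of each of the 10 genes in 9 cell groups, in CPM of the group on log axes; points are levels, bars exact 95% Poisson intervals, and open triangles mark the limit of 3 counts where a group had 0 UMIs. Nr1h2 lies between 29.6 and 61.1 CPM in these groups, whereas Nr1h3, Abca1, Abcg1 and Apoe are far higher in macrophage-like than in tumor-like cells.

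Macrophage-like cells carried higher levels than tumor-like cells of 7 of the 8 members with enough UMIs, and 0 members were lower. Over all 13632 genes tested, 21.5% were higher and 27.2% were lower in macrophage-like cells. The efflux transporters showed the widest gaps, with Abca1 203-fold (95% interval 155 to 273) and Abcg1 159-fold (108 to 242) higher. Apoe was 127-fold (125 to 129) and Nr1h3 100.9-fold (63.7 to 170) higher, while Nr1h2 was 1.19-fold higher (1.10 to 1.30) and fell under the call. The median ratio over the 8 members was 69.1, against 0.855 over all genes tested. Cyp46a1 and Cyp7b1 had too few UMIs to enter the counts of called members.

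The oxysterol enzymes differed in where they were found. Ch25h had most of its UMIs in tumor-like and macrophage-like cells, in a minority of the cells of each. Cyp27a1 was largely myeloid, Cyp7b1 had 9 of its 11 UMIs in CAF-like cells, and Cyp46a1 was close to the detection limit everywhere.

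Ch25h, at chr19:34473778-34475164 on the minus strand, is a gene of 1 exon that encodes the endoplasmic reticulum enzyme making 25-hydroxycholesterol. It had 658 UMIs in tumor-like cells and 726 UMIs in macrophage-like cells. Because tumor-like cells hold most of the library, their level was 8.76 CPM (8.10 to 9.45) and that of macrophage-like cells 51.3 (47.7 to 55.2), a 5.86-fold difference (5.27 to 6.52). The 2 groups thus supplied 44.9% and 49.6% of all Ch25h UMIs. Monocyte-like cells had 26 UMIs (19.9 CPM), and T-like, NK-like and Pdgfra-high CAF-like cells had 0.

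Ch25h was concentrated in a minority of cells. A UMI was seen in 20.01% of tumor-like cells and 20.9% of macrophage-like cells, although the former were far deeper. With each cell thinned to 1000 UMIs the shares were 1.05% (0.626 to 1.66) and 4.99% (3.93 to 6.23). None of 86 T-like cells, a type that should lack the gene, had a UMI, which allows a share of up to 3.49% (3.53% of the 85 thinned cells). The 5% of cells with most Ch25h held 52.3% of its UMIs in tumor-like cells and 57.0% in macrophage-like cells, with up to 10 and 24 UMIs in a single cell. For Nr1h2, the 5% of cells with most Nr1h2 held 18.2% and 27.7%. In tumor-like cells this compares unlike counts, 3010 UMIs of Nr1h2 and 658 of Ch25h, and such a share depends on the count.

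Among tumor-like cells, a Col3a1-high cluster of 833 cells had Ch25h at 12.8 CPM (359 UMIs) and a Col3a1-low cluster of 876 cells led by cell cycle genes had 6.35 (299 UMIs). The ratio was 2.02 (1.72 to 2.36), with Mylip at 1.64 (1.33 to 2.03) and Nr1h2 at 1.24 (1.15 to 1.34) between the same clusters. Macrophage markers other than Adgre1 (1.68 against 1.70 CPM) were also higher in the Col3a1-high cluster, such as C1qa (43.4 against 28.6). How much macrophage RNA adds to these ratios was not tested. No share over all genes was computed for this pair, and the alternative settings did not cover it. In Rgs5-high CAF-like cells Ch25h reached 80.2 CPM, but 18 of its 19 UMIs lay in 1 cell. The 37 endothelial-like cells had 5 UMIs, or 49.7 CPM (16.1 to 116).

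Cyp46a1, at chr12:108334381-108362234 on the plus strand, encodes the cholesterol 24-hydroxylase, the enzyme behind the oxysterol of the traced route and best known from neurons. Only 14 of 94085864 UMIs came from it. Tumor-like cells held 11 of them, in 11 different cells, a level of 0.146 CPM (0.0731 to 0.262). Macrophage-like, Pdgfra-high CAF-like and unnamed cells held 1 each. The macrophage-like level was 0.483 of the tumor-like level (0.0112 to 3.32), an interval too wide to order the groups at this depth. Thus 0.644% of tumor-like cells had a UMI (0.322 to 1.15), while none of 228 monocyte-like or 86 T-like cells did. In tumor-like cells 59.8 Ch25h UMIs (33.2 to 120) were counted for each Cyp46a1 UMI. The 3′ chemistry counts a transcript once whatever its length, so this quantity is a ratio of transcripts captured and not of enzyme.

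Cyp27a1, at chr1:74713574-74737892 on the plus strand, encodes the mitochondrial enzyme making 27-hydroxycholesterol. Macrophage-like cells had 196 UMIs (13.9 CPM, 11.98 to 15.9) and tumor-like cells 28 UMIs (0.373 CPM), a 37.2-fold difference (24.9 to 57.4). Monocyte-like cells had 13 UMIs (9.94 CPM) and DC-like cells 6 UMIs (13.1 CPM), both with intervals that cover the macrophage-like level. T-like and NK-like cells had 0. In consequence 23.5 Ch25h UMIs (16.1 to 35.6) accompanied each Cyp27a1 UMI in tumor-like cells, against 3.70 (3.16 to 4.36) in macrophage-like cells.

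Cyp7b1, at chr3:18071950-18243338 on the minus strand, encodes the hydroxylase that turns 25- and 27-hydroxycholesterol into their further hydroxylated forms. It had 11 UMIs in all, 9 of them in the 62 CAF-like cells at 15.1 CPM (6.92 to 28.7). Pdgfra-high CAF-like cells had 4 UMIs and Rgs5-high cells 5, of which 4 lay in 1 cell. The UMIs came from 5 cells altogether. Tumor-like cells had 0 UMIs, which allows a level of up to 0.0399 CPM on a floor of 3 counts. The CAF-like level was 379-fold that limit, a value that leaves out its own counting interval. Without the 7 CAF-like cells with most macrophage markers, a choice made after seeing the data, 5 UMIs remained (9.84 CPM, 3.19 to 23.0). Macrophage-like cells had 1 UMI.

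The receptors followed opposite patterns. Nr1h2 was present in 14 of the 15 groups in an even range, whereas Nr1h3 marked macrophage-like cells.

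Nr1h2, at chr7:44549616-44553951 on the minus strand, had 3010 UMIs in tumor-like cells at 40.05 CPM (38.6 to 41.5) and 676 in macrophage-like cells at 47.8 (44.3 to 51.5). T-like cells had 61.1 (41.2 to 87.2), DC-like cells 58.8 and monocyte-like cells 53.5. The lowest value, 20.5 in the 22 resident-type macrophage-like cells, rested on 3 UMIs (4.22 to 59.8), and the 23 granulocyte-like cells had 0 UMIs with room for 115.6 CPM. The share of cells with a UMI was 73.1% in tumor-like and 34.6% in macrophage-like cells, but 4.45% and 5.53% after thinning to 1000 UMIs. The highest level in a large group was in macrophage-like cells that met no state, at 60.5 (52.4 to 69.4). Levels of Nr1h2 thus stayed in a narrow range, although some differences between large groups were beyond counting error.

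Nr1h3, at chr2:91184061-91202834 on the minus strand, had 361 UMIs in macrophage-like cells at 25.5 CPM (23.0 to 28.3). Monocyte-like cells had 15 UMIs (11.5 CPM, 6.42 to 18.9) and tumor-like cells 19 UMIs (0.253 CPM). DC-like cells had 1 UMI, and T-like and NK-like cells had 0. Each Nr1h2 UMI was matched by 0.534 Nr1h3 UMIs (0.469 to 0.608) in macrophage-like cells, 0.214 (0.114 to 0.378) in monocyte-like cells and 0.00631 (0.00380 to 0.00987) in tumor-like cells. The balance between the receptors therefore differed by more than counting error between these 3 groups. Exons of Nr1h3 overlap the transcript Gm13783 on the same strand, so some reads could belong to either.

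The target genes were all higher in macrophage-like than in tumor-like cells, with Mylip the least restricted. Abca1, at chr4:53030787-53159895 on the minus strand, exports cholesterol and phospholipid to lipid-poor apolipoproteins. It had 2030 UMIs in macrophage-like cells at 143.5 CPM (137.3 to 149.9) and 53 UMIs in tumor-like cells at 0.705 (0.528 to 0.922). A UMI was present in 55.6% of macrophage-like and 2.98% of tumor-like cells, or 12.7% and 0.0585% after thinning. Monocyte-like cells had 42.1 CPM (55 UMIs), Pdgfra-high CAF-like cells 30.7 (11 UMIs) and endothelial-like cells 109.3 (11 UMIs, 54.6 to 195.5). DC-like, T-like and NK-like cells had 0 UMIs, which in T-like cells allows up to 6.11 CPM. The Pdgfra-high and endothelial-like values were 21.4% and 76.2% of the macrophage-like level, above the 9 macrophage markers in the same cells, which reached at most 3.49% and 6.22%. Rgs5-high CAF-like cells had 1 UMI, 2.94% of the macrophage-like level, which lay inside their marker range.

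Abcg1, at chr17:31057675-31117988 on the plus strand, exports cholesterol to high-density lipoprotein. Macrophage-like cells had 806 UMIs (57.0 CPM, 53.1 to 61.1), monocyte-like cells 52 (39.8, 29.7 to 52.1) and tumor-like cells 27 (0.359, 0.237 to 0.523). T-like cells had 9 UMIs at 18.3 CPM (8.38 to 34.8), in which Abca1 was not found. That level was 32.2% of the macrophage-like level (14.7 to 61.4), and 9 macrophage markers stood at 1.07% to 2.18% of theirs in the same T-like cells. Abcg1 therefore lay above the macrophage markers there. Abca1 UMIs per Abcg1 UMI were 2.52 (2.32 to 2.74) in macrophage-like and 1.06 (0.711 to 1.58) in monocyte-like cells.

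Mylip, at chr13:45389742-45412022 on the plus strand, encodes the ubiquitin ligase IDOL. It had 403 UMIs in macrophage-like cells (28.5 CPM, 25.8 to 31.4) and 360 in tumor-like cells (4.79, 4.31 to 5.31), a 5.95-fold difference (5.15 to 6.88). Pdgfra-high CAF-like cells had 18 UMIs at 50.2 CPM (29.8 to 79.4), while Rgs5-high cells had 2. The 37 endothelial-like cells had 59.6 CPM from 6 UMIs. Mylip resembled Ch25h in its tumor-like share, as the 2 genes stood at 16.8% and 17.1% of the macrophage-like level.

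Apoe, at chr7:19696109-19699188 on the minus strand, encodes apolipoprotein E, a carrier of cholesterol secreted by macrophages. It had 386690 UMIs in macrophage-like cells, or 27336 CPM (27249 to 27422), and 17668 UMIs in monocyte-like cells at 13509 CPM. Tumor-like cells had 16148 UMIs, 214.9 CPM (211.6 to 218.2), T-like cells 454.0 and DC-like cells 398.5. The median cell had 19530 CPM in macrophage-like and 203.8 in tumor-like cells, and 10% of macrophage-like cells lay under 4058. As 90% of tumor-like cells lay under 496.1, the bulk of the 2 distributions did not overlap.

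**Figure D2:**
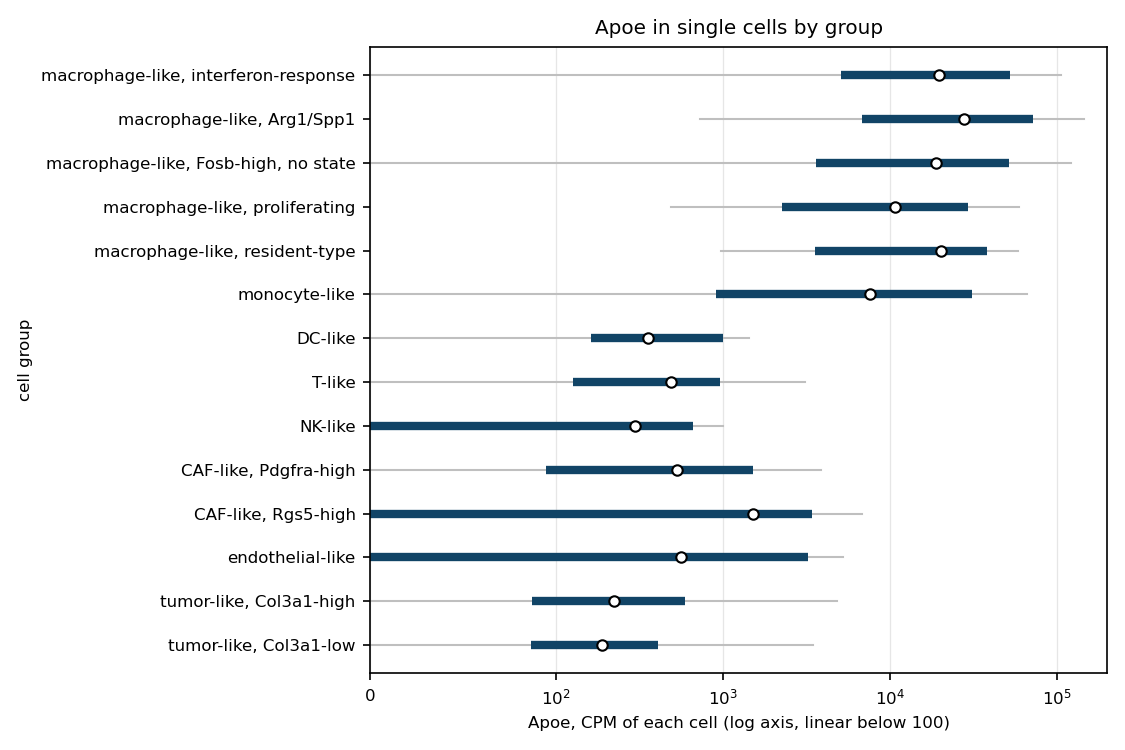
Apoe in single cells of 14 groups, in CPM of each cell on a log axis that is linear below 100; circles are medians, thick bars run from the 10th to the 90th percentile, and thin lines from the lowest to the highest cell. Medians range from 10764 to 27890 in the macrophage-like states and from 189.3 to 223.8 in the tumor-like clusters.

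Apoe was counted beside macrophage transcripts in all groups, in unequal ratios. A UMI of Apoe was seen in 98.2% of tumor-like cells (22.3% after thinning) and in 91.9% of T-like cells (34.1% after thinning). After thinning, the tumor-like share was thus under that of a type that should lack the gene. C1qa stood at 1.22% of its macrophage-like level in T-like and at 0.444% in tumor-like cells, so the 2 backgrounds differ. The tumor-like share is therefore read neither as expression nor as its absence. For each UMI of the macrophage marker C1qa there were 3.56 Apoe UMIs (3.53 to 3.58) in macrophage-like, 4.46 (4.31 to 4.62) in monocyte-like, 4.85 (3.52 to 6.81) in T-like and 6.30 (6.04 to 6.57) in tumor-like cells. The ratio was 1.91 (1.48 to 2.47) in DC-like and 9.06 (5.48 to 15.95) in Pdgfra-high CAF-like cells. Apoe per C1qa in tumor-like cells was thus above that of each macrophage-like state, from 2.01 in proliferating to 4.63 in Arg1/Spp1 cells. How much tumor cells contribute to their Apoe count was not tested.

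The other members were set against the same background. In tumor-like cells, 9 macrophage markers had 0.373% to 0.772% of their macrophage-like level, C1qc lowest and Adgre1 highest. Abca1 at 0.491% and Abcg1 at 0.631% lay inside that range. Apoe at 0.786% and Nr1h3 at 0.991% (0.589 to 1.57) lay just above it, and Cyp27a1 at 2.69% (1.74 to 4.01) further above. Mylip, Ch25h and Nr1h2, at 16.8%, 17.1% and 83.8%, were far outside it. Leaving out the 171 tumor-like cells with most macrophage markers, a choice made after seeing the data, lowered C1qa from 34.1 to 27.9 CPM and Apoe to 197.4. Abca1 was then 0.635, Ch25h 8.83 and Mylip 4.70, each inside the counting interval of its level in all tumor-like cells.

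**Figure D3:**
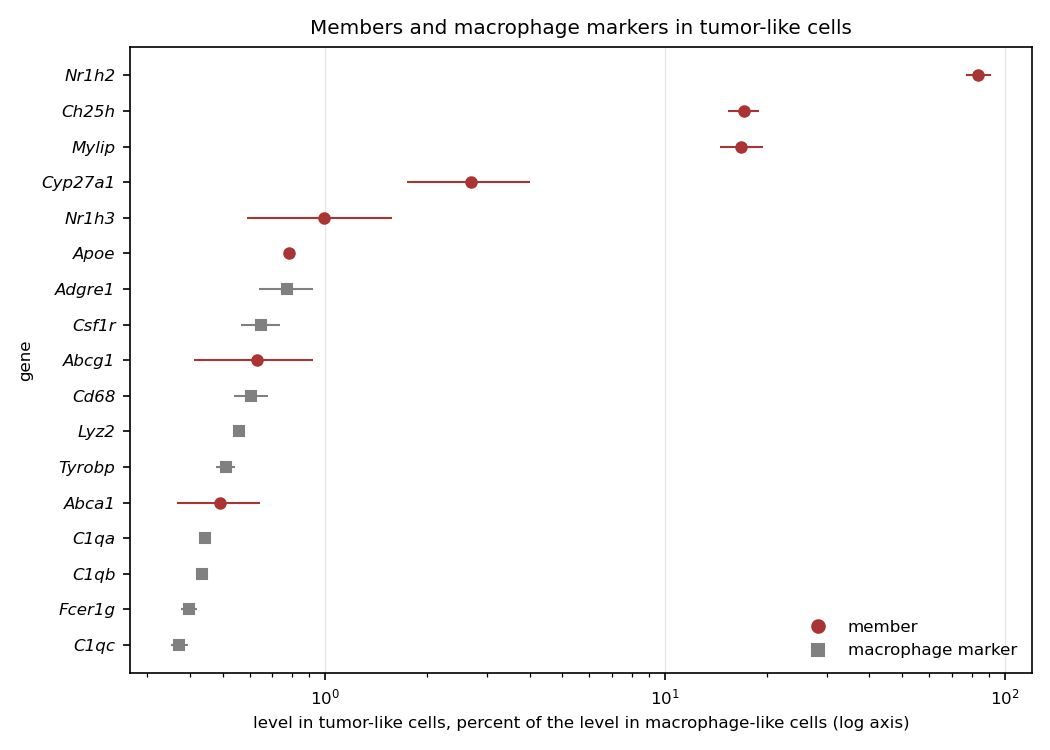
Level in tumor-like cells as a percent of the level in macrophage-like cells, on a log axis, for 8 members (circles) and 9 macrophage markers (squares), with exact 95% intervals of the ratio. Abca1 and Abcg1 lie among the markers, and Mylip, Ch25h and Nr1h2 lie at 16.8% or more.

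Macrophage-like cells fell into states, and 2 members were called between the main ones. Interferon-response cells (521 cells, marked by Cxcl9, Cxcl10, Gbp5 and Ifit2) were compared with Arg1/Spp1 cells (303 cells, marked by Arg1, Spp1, Mmp12, Hmox1 and Fabp5). Ch25h was higher in interferon-response cells, where 7.3% of 10076 genes tested were higher, and Abca1 was lower, where 3.55% were lower. The other 6 members with enough UMIs were not called, and the median ratio over the 8 was 1.01 against 1.14 over all genes.

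Ch25h had 339 UMIs in interferon-response cells (77.5 CPM, 69.5 to 86.2) and 93 in Arg1/Spp1 cells (26.1, 21.1 to 32.0), a ratio of 2.97 (2.35 to 3.77). Proliferating cells had 153 UMIs (56.1 CPM) and cells with no state 139 (41.6). A UMI was seen in 26.1% of interferon-response and 14.2% of Arg1/Spp1 cells, although the latter were deeper (median 11552.0 against 7983.0 UMIs). After thinning, the shares were 7.80% (5.63 to 10.5) and 2.31% (0.934 to 4.70), whose intervals did not overlap. The order interferon-response above Arg1/Spp1 thus held by level and by cells.

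Abca1 ran the other way, with 445 UMIs in interferon-response cells (101.8 CPM, 92.5 to 111.7) and 793 in Arg1/Spp1 cells (222.9, 207.6 to 238.9). The Arg1/Spp1 level was 2.19-fold higher (1.95 to 2.47), and the call was lost under 8 of the 16 alternative settings, with the log2 ratio of interferon-response to Arg1/Spp1 cells between -1.56 and -0.80 throughout. After thinning, 16.2% of Arg1/Spp1 and 9.75% of interferon-response cells had a UMI. The highest level of all groups was in the 22 resident-type cells marked by Lyve1 and Folr2, at 525.1 CPM (414.4 to 656.3), where 20 of 22 cells had a UMI. The lowest macrophage-like level was in proliferating cells, at 70.7 (61.1 to 81.4).

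The remaining members varied less between these states. Abcg1 had 62.0 CPM in interferon-response and 76.7 in Arg1/Spp1 cells, a ratio of 0.81 (0.68 to 0.96), and Apoe a ratio of 0.79 (0.78 to 0.80). Nr1h3 was at 34.1 against 23.9 (ratio 1.43, 1.09 to 1.88) and Cyp27a1 at 16.2 against 8.99 (ratio 1.81, 1.17 to 2.83). Intervals of the ratios of Nr1h2 (0.92 to 1.42) and Mylip (0.68 to 1.14) included 1. Over the alternatives the log2 ratio of Abcg1 ran from -0.83 to 0.14 and that of Apoe from -0.60 to 0.10, and those of Nr1h2 and Mylip also took both signs, so no direction is given for these 4. Nr1h3 and Cyp27a1 kept ratios above 1 wherever they were computed.

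Proliferating cells had lower levels of Nr1h3, of the target genes and of Ch25h than interferon-response cells. Against interferon-response cells, the ratio was 0.45 for Nr1h3 (0.31 to 0.64), 0.49 for Mylip (0.33 to 0.70), 0.50 for Abcg1 (0.39 to 0.64), 0.50 for Apoe (0.49 to 0.50) and 0.70 for Abca1 (0.58 to 0.82). Ch25h was at 56.1 against 77.5 CPM, and the interval of that ratio did not include 1. Nr1h2 at 0.82 (0.64 to 1.03) and Cyp27a1 at 0.72 (0.46 to 1.11) had intervals that included 1. No share over all genes was computed for this pair, and the alternative settings did not cover it.

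**Figure D4:**
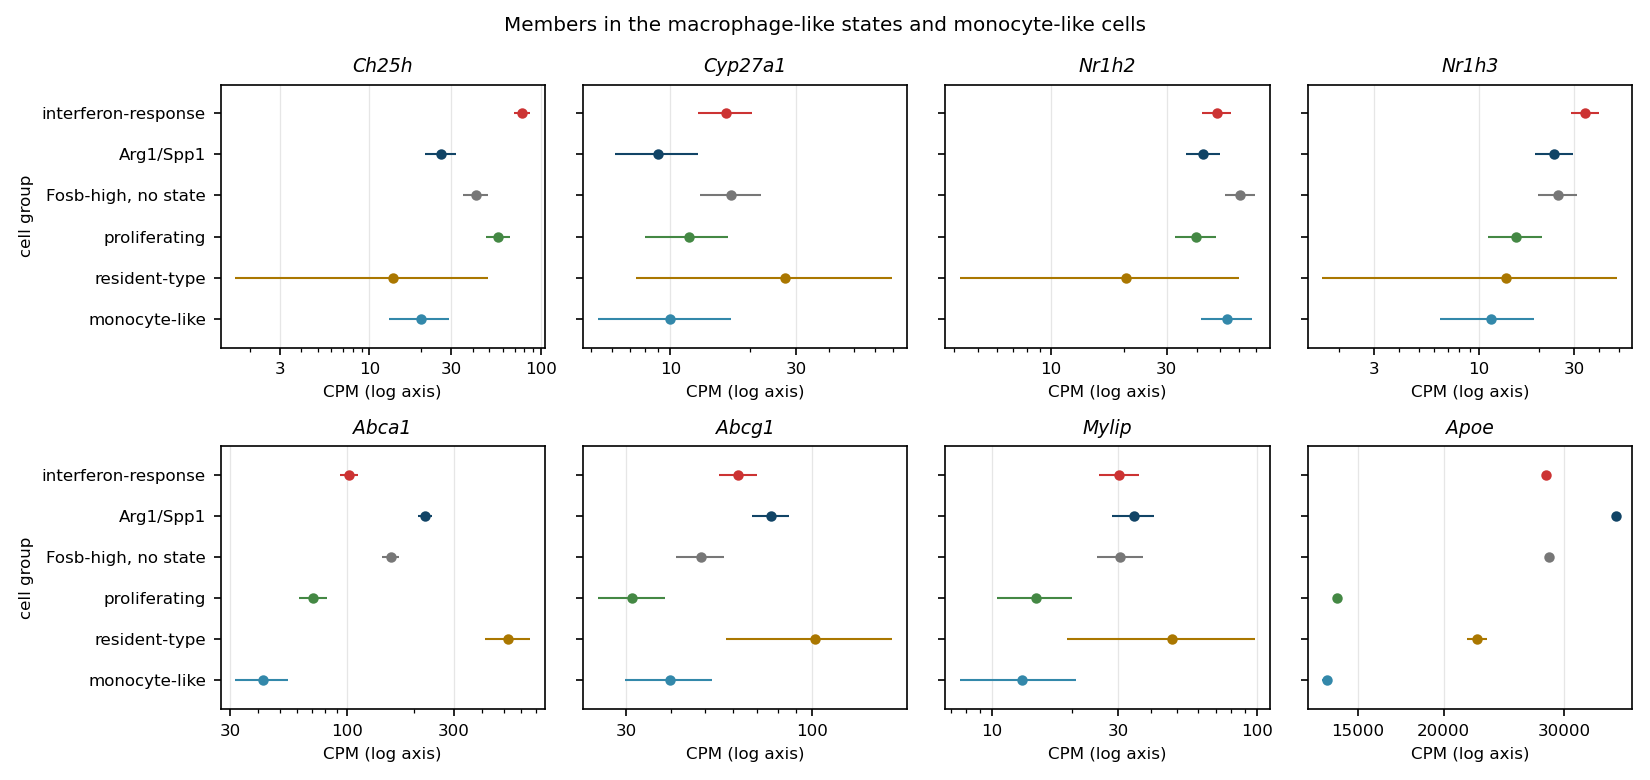
Level of 8 members in 5 macrophage-like states and in monocyte-like cells, in CPM on log axes that differ between panels; points are levels and bars exact 95% Poisson intervals. Ch25h is higher in interferon-response than in Arg1/Spp1 cells (77.5 against 26.1), Abca1 is lower (101.8 against 222.9), and resident-type values other than Abca1 and Apoe have wide intervals.

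Macrophage-like cells exceeded monocyte-like cells in 5 of the 8 members with enough UMIs and fell below in 0. Of 11266 genes tested, 11.7% were higher and 2.94% lower. Abca1 was 3.41-fold higher (2.61 to 4.55), Ch25h 2.58-fold (1.75 to 3.98), Nr1h3 2.23-fold (1.33 to 4.02), Mylip 2.19-fold (1.35 to 3.80) and Apoe 2.02-fold (1.99 to 2.05). Abcg1 at 1.43 (1.08 to 1.94), Cyp27a1 at 1.39 (0.80 to 2.66) and Nr1h2 at 0.89 (0.70 to 1.16) were not called. The median ratio over the 8 was 2.11 against 1.09 over all genes. Abca1 was the sole call kept under all 16 alternatives. The log2 ratio fell as low as 0.95 for Ch25h, 0.84 for Apoe and 0.79 for Mylip, and that of Nr1h3 from 1.15 to 0.02 with cells thinned to 1000 UMIs, so its difference did not hold there. C1qa was itself present in monocyte-like cells, where 9 macrophage markers stood at 36.7% to 119.5% of their macrophage-like level, so the border between these groups is gradual.

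For each member with at least 100 UMIs, the genes of most similar level across 14 groups were listed by Pearson's r of log2(CPM + 1), among 10965 genes. The groups share a library and differ in depth, so r is a description. Apoe followed Ms4a7, Trem2 and C1qa (all 0.99), and Nr1h3 followed Tmem86a (0.97), G530011O06Rik (0.96) and C1qc (0.95). Abca1 was nearest Itga9 (0.98), Plau (0.95) and Zdhhc14 (0.94), and Abcg1 was nearest Ssh2 (0.96), Sdcbp (0.95) and Sptlc2 (0.94). Ch25h was nearest Snx10 (0.93), Pkig (0.92) and Cebpg (0.88), and Mylip was nearest Slc36a4 (0.93), Pisd (0.88) and Dnajb9 (0.87). The highest Ch25h level entering r was that of Rgs5-high CAF-like cells, where 18 of 19 UMIs lay in 1 cell. Cyp27a1 was nearest Nectin4 (0.99), Cd300a and Gm21188 (both 0.96), whereas no gene followed Nr1h2 above 0.87 (Tmem134, with Uckl1 at 0.86 and Rab11fip1 at 0.84). No member was among the 3 nearest genes of another, which says nothing of how alike the members were.

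Other genes of the pathway, listed by name as known LXR targets, did not move as a block between macrophage-like and tumor-like cells. Of 16, 12 had enough UMIs, 7 were higher in macrophage-like cells, 3 were lower and 2 were neither, beside the 21.5% higher and 27.2% lower over all genes tested. The higher genes carry or take up lipoprotein lipid or clear dying cells: Lpl 377-fold (145.7 to 1394), Apoc2 154-fold, Apoc4 100.9-fold, Apoc1 74.4-fold, Mertk 19.2-fold and Pltp 11.7-fold, with Arl4c 2.89-fold. The 3 lower genes make fatty acids, as Scd1 was 8.003-fold, Fasn 4.69-fold and Scd2 3.099-fold higher in tumor-like cells. Srebf1, the activator of that synthesis and itself an LXR target, was 1.64-fold higher in tumor-like cells (1.46 to 1.86), and Lpcat3 was 1.75-fold higher. The sterol transporters Abcg5 and Abcg8 had 0 UMIs in both groups and Abcg4 had 9 in tumor-like cells.

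Among the RXR partners and coregulators, 1 of 4 genes with enough UMIs was called, a share near the 21.5% of all genes, as the coactivator Ncoa1 was 3.12-fold higher (2.67 to 3.63) in macrophage-like cells. Rxra was 1.84-fold higher (1.56 to 2.17), Rxrb stood at 0.74 (0.66 to 0.82), the corepressor Ncor1 at 0.89, and Rxrg had 1 UMI. Partners of LXR were thus counted in both groups.

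Of 7 genes listed for steps between cholesterol and Tgfb1, 5 were higher in macrophage-like cells, where 21.5% of all genes were, and 2 were not called. Npc2 (6.51-fold) and Npc1 (3.05-fold) move cholesterol out of lysosomes, Lrp1 (4.08-fold) takes up lipoproteins and Soat1 (2.11-fold) esterifies cholesterol. Tgfb1 had 57.2 CPM in tumor-like cells (55.5 to 58.96), 177.8 in macrophage-like (170.9 to 184.9), 232.4 in monocyte-like, 154.7 in T-like and 256.1 in NK-like cells (193.5 to 332.6). Atp6v0a1, the subunit studied, had 582 UMIs in tumor-like cells (7.74 CPM) and 219 in macrophage-like cells (15.5), a ratio of 1.999 (1.70 to 2.34), just under the call. Rabgef1 had a ratio of 1.81 (1.54 to 2.12).

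**Figure D5:**
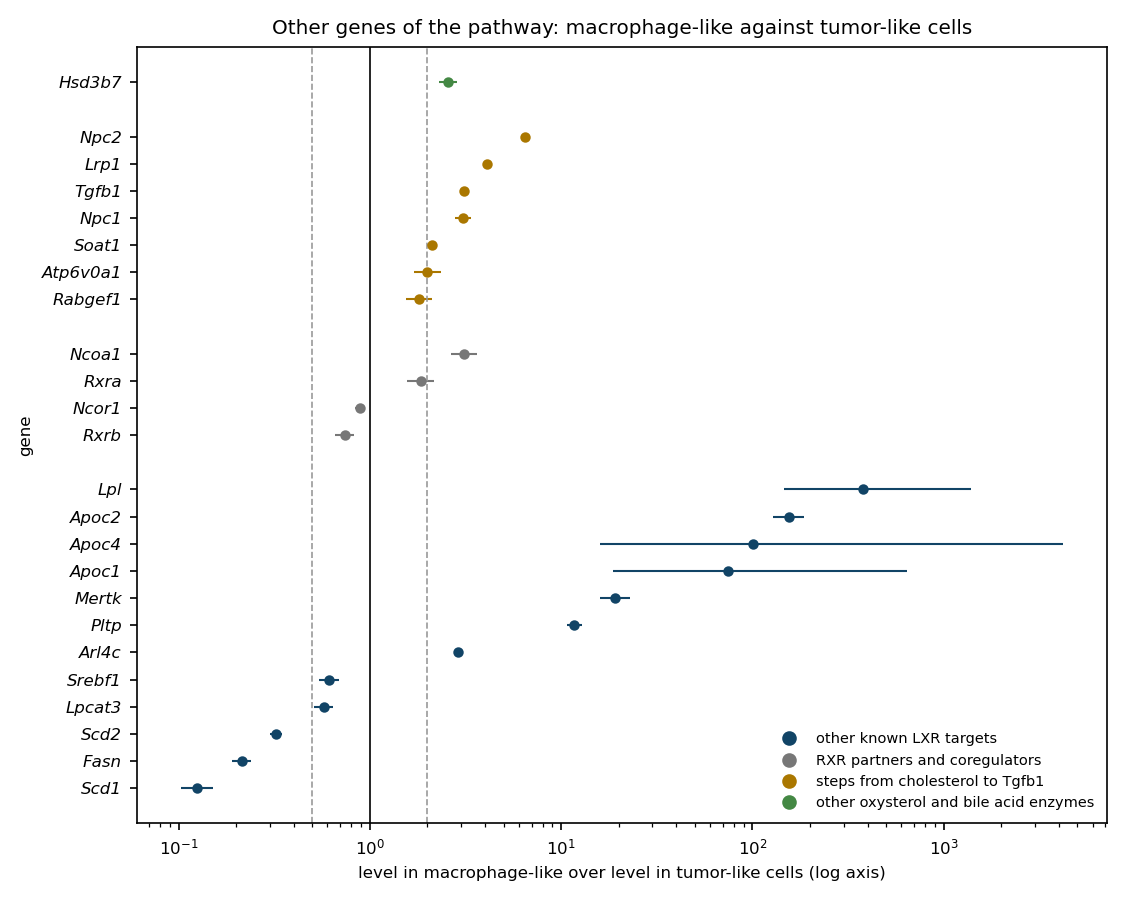
Ratio of the level in macrophage-like to that in tumor-like cells, on a log axis, for the listed pathway genes that are not members and had at least 20 UMIs; bars are exact 95% intervals and dashed lines mark 2-fold either way. Lipoprotein genes such as Lpl and Apoc2 lie over 100, while Scd1, Fasn and Scd2 lie below the lower line.

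The axis from Ch25h to the guidance receptor of immune cells was uneven over groups. Ch25h makes the precursor 25-hydroxycholesterol, Cyp7b1 turns it into the ligand of Gpr183 and Hsd3b7 degrades that ligand. Gpr183 is a receptor that steers lymphocytes and dendritic cells. Gpr183 was at 93.6 CPM in DC-like cells (67.8 to 126.1), 81.4 in T-like (58.2 to 110.9) and 64.0 in NK-like cells (35.0 to 107.4). The level was 42.8 in monocyte-like, 23.4 in macrophage-like and 0.173 in tumor-like cells. A UMI of Gpr183 was seen in 44.4% of DC-like, 17.4% of T-like and 45.0% of NK-like cells. Hsd3b7 was 2.56-fold higher (2.30 to 2.86) in macrophage-like than in tumor-like cells. Gpr183 levels were thus highest in DC-like, T-like and NK-like cells, with overlapping intervals, and Ch25h had 2, 0 and 0 UMIs there. The NK-like interval also covers the monocyte-like level of Gpr183. All 3 groups are small, and Ch25h in DC-like cells (4.36 CPM, 0.527 to 15.7) had an interval that covers the tumor-like 8.76. T-like cells allow up to 6.11 CPM of Ch25h. Monocyte-like cells had UMIs of both genes, with Ch25h at 19.9 CPM. Cyp7b1 UMIs were mostly in CAF-like cells.

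Between macrophage-like and monocyte-like cells, most other listed genes were not called, beside 11.7% higher and 2.94% lower over all genes tested. Of 11 known LXR targets with enough UMIs, Lpl (3.75-fold), Mertk (3.08-fold) and Pltp (2.08-fold) were higher in macrophage-like cells, and 6 were neither. Apoc2 (2.19-fold) and Apoc1 (2.70-fold) were higher in monocyte-like cells, but the Apoc1 interval (0.997 to 6.34) included 1. Of 4 RXR partners and coregulators, Rxra (2.01-fold, 1.04 to 4.47) was higher and 3 were neither. Of 7 genes listed between cholesterol and Tgfb1, Npc1 (2.15-fold) was higher and 6 were neither.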

How the data were processed

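Cells of MC38 tumors were profiled with 10x 3′ chemistry (version 3.1 kit). The authors deposited 1 matrix of raw UMI counts per gene and cell, made with cellranger 5.0.1 per the file header on GRCm38 (mm10); FastQC and Seurat are named in the submitters' processing notes without versions. The 5307 called cells held 106631000 UMIs. Kept were cells with at least 200 genes (0 removed) and at most 20% mitochondrial UMIs (667 removed). Doublets were scored against simulated ones, and the top-scoring cells at 0.8% per 1000 cells were removed (197). Cells were scaled to 10000 UMIs and clustered on 2000 variable genes, 30 components and 20 neighbors (Leiden resolution 0.5, 1.0 for T and NK subgroups), leaving out the members and listed genes. Clusters were named from marker lists when at least 3 list genes were raised 2-fold. The form of the tumor-cell rule (3 markers at 5-fold over myeloid cells, Xist under 10%) was set after seeing the data. Shallow clusters without list genes among their 10 leading genes stayed unnamed.

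UMIs were summed per group. Levels have exact Poisson, shares Clopper-Pearson and ratios conditional binomial 95% intervals, and a group at 0 takes a floor of 3 counts. With 1 library there are no replicates, so no p-values were computed. The intervals were checked on simulated Poisson counts of each group. Those counts have no spread between cells, so the check does not cover UMIs that cluster in few cells. Named are the 10 members, the genes of 5 fixed lists and, for members with at least 100 UMIs, the 3 most similar genes (pseudocount 1, genes with at least 200 UMIs, groups with at least 100000 UMIs). Some listed genes are not reported here. The members and lists were chosen with earlier results of these data known. Promoters come from RefSeq (8 members, 11 windows). There were 13 planned and 3 added alternatives. Analyses ran in Python 3.11.15 with leidenalg 0.10.2 on igraph 0.11.9, scikit-learn 1.9.0, scipy 1.17.1, numpy 2.4.6 and pandas 2.3.3, and figures in matplotlib 3.10.9.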

Additional observations from a re-analysis of the deposited data

How the results depend on the processing

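Of the counts of called members, those of macrophage-like against tumor-like cells moved least. The count of 7 higher members was the same under all 16 alternatives, and the count of 0 lower became 1 (Cyp46a1, with 12 UMIs over both groups) with no UMI minimum. Between interferon-response and Arg1/Spp1 cells, the count of higher members was 2 in place of 1 with no mitochondrial limit, with doublets kept, at resolutions 0.3 and 0.8, with another seed, with listed genes allowed among the variable genes (Cyp27a1 joining Ch25h in each) and with cells thinned to 1000 UMIs (Nr1h3 joining). The count of lower members was 0 in place of 1 with doublets kept, more variable genes, resolution 0.3 or 0.8, 20 components, another seed, listed genes allowed and thinning, since Abca1 then missed the 2-fold mark (log2 ratio as weak as -0.80). Ch25h kept log2 ratios of 1.08 to 3.32 in all alternatives. Between macrophage-like and monocyte-like cells the count of 5 higher members was 3 with more variable genes (log2 ratios of 0.79 for Mylip and 0.84 for Apoe) and with 20 components (0.95 for Ch25h and 0.79 for Nr1h3). Beyond the direct effect of each choice, the cause was not tested. No called ratio reversed, while those of Abcg1, Apoe, Mylip and Nr1h2 between interferon-response and Arg1/Spp1 cells, which were not called, took both signs. The alternatives that leave out cells with foreign markers or add unnamed myeloid cells were chosen after seeing the data. No paired analysis was possible because the series has 1 library. Levels that rest on under 20 UMIs, which covers Cyp46a1 and Cyp7b1 everywhere and most members in NK-like, DC-like, CAF-like, endothelial-like and granulocyte-like cells, have wide intervals, and many neighboring groups could not be ordered by them.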

Other observations

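Among further listed LXR targets, Pltp, Lpl and Cd5l had their highest macrophage-like levels in the 22 resident-type cells. The other listed targets are not described for these cells. No share over all genes was computed for this group. Pltp, which transfers phospholipid between lipoproteins, had 207 UMIs there (1412 CPM, 1226 to 1618) against 64.1 to 128.5 CPM in the other macrophage-like states. Lpl had 95.5 CPM (52.2 to 160.2) against 10.8 to 27.0, and 6 of the 9 Cd5l UMIs of macrophage-like cells lay in these cells. The same cells had the highest Abca1 level, while their Apoe level (22368 CPM) was below that of Arg1/Spp1 cells (35635).

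Sult2b1, a sulfotransferase of cholesterol and oxysterols, had 12 UMIs in T-like cells (24.4 CPM, 12.6 to 42.7) and 5 in NK-like cells (22.9), against 0.353 CPM in macrophage-like and 0.0798 in tumor-like cells. Cyp39a1, which hydroxylates 24-hydroxycholesterol, had 15 UMIs in tumor-like cells (0.200 CPM) and 4 in monocyte-like cells (3.06). Cyp7a1, Cyp3a11 and Cyp8b1, known from the liver, had 0 UMIs in all kept cells.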
